A study of Mus musculus with 6 samples.

Results

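Ribosome biogenesis and nucleolar genes encode the proteins that transcribe, modify, cut and fold ribosomal RNA and join it to ribosomal proteins. The 37 genes described here are a list fixed by name, chosen with earlier results of these data known. Ensembl gene IDs were matched to GENCODE mouse symbols. All 37 were found among the 43629 gene rows of the count table, and all 37 were among the 13445 genes with enough counts to be tested. No member reached the low-count limit, since the smallest count of any member in any library was 855, for Wdr74.

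The study sequenced poly-A RNA from M1, a mouse neuroblastoma cell line, in 6 libraries. In 3 libraries the cells, labelled WT, carried a non-targeting short hairpin RNA (shNT), and in the other 3, labelled IGF2BP1 knockdown, a hairpin against the RNA-binding protein IGF2BP1 (shIGF2BP1). All 6 received doxycycline at 4 to 6 µg/ml for 6 days to switch the hairpin on, so no library shows the cells without the drug. The labels name a single targeting hairpin and do not say whether replicates were separate cultures, so a p-value here speaks only of how these libraries scatter, and that scatter may be technical.

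Library totals ran from 25119655 to 35373076 counts, and mitochondrial transcripts took 2.21% to 3.69% of a library. Igf2bp1, the targeted gene, had 37, 175 and 201 counts in shNT and 67, 35 and 311 in the libraries labelled shIGF2BP1, which on the log2 scale is a difference of 0.25 ± 0.79 (SE) at an adjusted p of 0.966 by edgeR. Its transcript was thus not detectably lower under the hairpin, and every direction below is between the libraries as labelled. Of 12 sympathetic neuroblastoma markers, Hand2, Gata3, Mycn and Isl1 had enough counts to be tested, while Th, Dbh, Chga and Elavl4 had 0 counts in all 6 libraries. Of 7 leukocyte markers, Adgre1 and Cd3e were at 0, and the summed level of the list was 7.78 to 14.9 CPM (counts scaled to library size with TMM factors) in shNT and 4.16 to 6.18 CPM in shIGF2BP1. Of 4 Schwann cell markers, Sox10 and S100b were at 0, with sums of 2.21 to 2.55 CPM in shNT and 1.17 to 5.22 CPM in shIGF2BP1. Endothelial markers summed to 37.1 to 53.8 CPM in shNT and 31.1 to 73.7 CPM in shIGF2BP1, and fibroblast markers to 375 to 462 and 290.02 to 575 CPM. The part of these markers in the results below was not tested.

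Ribosome assembly starts in the nucleolus, where RNA polymerase I makes a long precursor RNA. Small nucleolar ribonucleoproteins (snoRNPs) guide its methylation and pseudouridylation, and separate sets of factors then build the small and the large subunit. Many of these genes are textbook targets of the transcription factor MYC, which binds with its partner MAX to the E-box CACGTG, and MYC raises ribosome production in growing tumour cells. MYCN, its relative, does so in many neuroblastomas.

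The letters CACGTG were searched in RefSeq promoter windows of 300 bases, from 250 before to 50 after each annotated start (build GRCm38.p6), because Myc differs so widely between these libraries. The word is its own reverse complement, so 1 search covers both strands. Of the 32 members with a window in the table, 8 held it (25% of genes), against 11.8% of the tested genes and 8.09% of all genes in the table. It was also in 16 of 91 ribosome biogenesis genes outside the members (17.6%). Of Myc targets outside the nucleolus 9 of 27 held it (33.3%), and of ribosomal protein genes 6 of 61 (9.84%). The related word CACGCG, or CGCGTG on the other strand, was in 10 of the 32 (31.3%), against 20.7% of tested genes. Ribosome biogenesis genes outside the members held this word in a like share, 29 of 91 (31.9%). The sites are shown 5′ to 3′ on the strand of the gene, with the E-box in capitals, cut short where the window ended.
Nop2: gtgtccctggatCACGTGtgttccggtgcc
Wdr43: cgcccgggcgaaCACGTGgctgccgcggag
Tsr1: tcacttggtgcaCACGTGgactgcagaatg
Ltv1: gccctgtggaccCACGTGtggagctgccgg
Utp20: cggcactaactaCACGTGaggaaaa
Pes1: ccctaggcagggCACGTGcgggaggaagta
Mybbp1a: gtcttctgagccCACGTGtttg
Pus7: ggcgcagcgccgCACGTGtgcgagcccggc
The Nop2 site lies upstream, with its first base at -60 from the start (chr6:125131811-125131840, plus strand). The other 7 lie just after the RefSeq start, with the first E-box base at 3 in Pes1, 18 in Wdr43, 25 in Tsr1, 29 in Ltv1 and Pus7, 38 in Utp20 and 41 in Mybbp1a, where the start is 1. Among the 8 genes, Wdr43, Tsr1, Ltv1 and Utp20 encode small-subunit assembly factors. A match is a description of these letters, not a measured binding site.

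The 200 bases upstream of the RefSeq starts of Nop2 and Nop58 are printed below. They set a member with the word beside a member without it in its window. Nop2 is an rRNA cytosine methyltransferase. Nop58 is a core snoRNP protein whose level stood out most in the library of highest Myc.
Nop2: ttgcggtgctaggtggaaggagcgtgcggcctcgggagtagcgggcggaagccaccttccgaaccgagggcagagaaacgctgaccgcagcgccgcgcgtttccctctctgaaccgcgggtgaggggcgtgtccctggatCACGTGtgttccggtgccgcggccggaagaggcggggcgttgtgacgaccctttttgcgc
Nop58: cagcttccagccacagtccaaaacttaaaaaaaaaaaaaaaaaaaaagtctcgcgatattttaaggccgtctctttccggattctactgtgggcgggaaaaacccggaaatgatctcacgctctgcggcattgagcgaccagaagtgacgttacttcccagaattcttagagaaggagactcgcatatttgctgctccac
The first is chr6:125131683-125131882 and the second chr1:59684806-59685005, both on the plus strand of GRCm38.p6. In GENCODE, Nop58 starts at 59684971, so the end of its printed stretch lies within the gene as annotated there. The absence of the word from the Nop58 window says only that these letters are not in it.

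Levels spanned 2 orders of magnitude among the members when CPM were divided by transcript length. Npm1, the abundant nucleolar chaperone nucleophosmin, stood highest at a mean of 1343 CPM per kb over the 6 libraries. The next were the box C/D snoRNP protein Nop56 at 246, nucleolin (Ncl) at 214, the large-subunit factor Noc2l at 196 and the snoRNP chaperone Nolc1 at 194 CPM per kb. The Ncl transcript in the annotation is 8202 bases long, so its level per kb rests on that length. At the low end, the RNA polymerase I catalytic subunit Polr1a had 11.8, the small-subunit factors Bysl and Utp20 11.98 and 11.5, and Rrp12 14.2 CPM per kb. In the plot of levels by member, the 6 libraries of a gene lie close together beside the distance between genes.

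**Figure D1:**
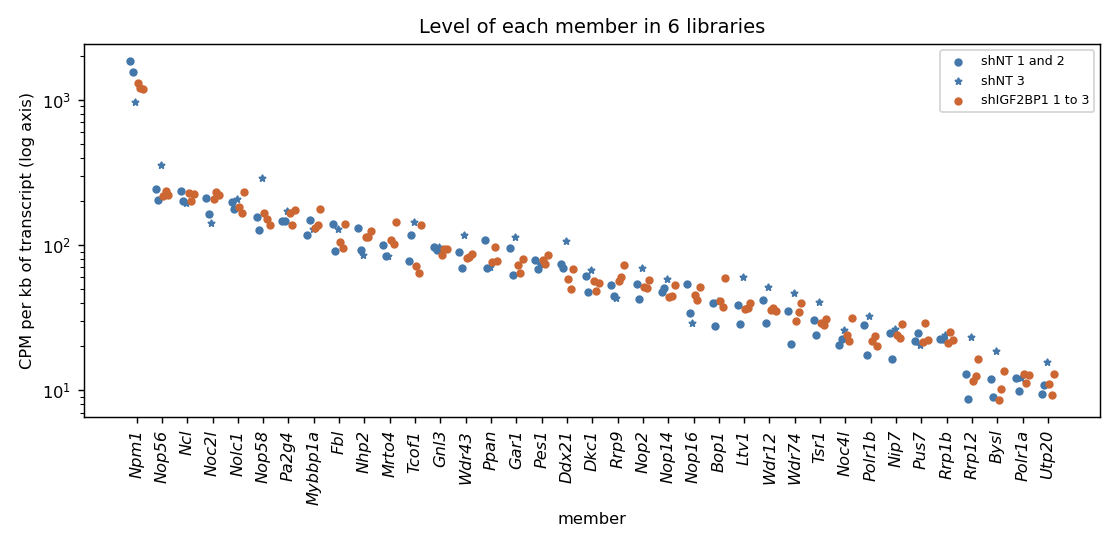
Level of each of the 37 members in each library, as CPM per kb of the shortest principal transcript (log axis), with members ordered by their mean over the 6 libraries. Blue points are shNT (star, replicate 3), orange points shIGF2BP1; Npm1 stands above all others at a mean of 1343 CPM per kb.

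The spread of Myc came mostly from 1 shNT library. Its counts in replicate order were 179, 372 and 3996 under shNT and 83, 242 and 238 under shIGF2BP1, or 6.03, 10.9 and 120.8 CPM against 3.17, 6.86 and 8.68 CPM. shNT replicate 3 thus stood 17.6-fold above the median of the other 5 libraries, which overlapped between groups. Between groups Myc differed by -2.88 ± 0.94 (log2, shIGF2BP1 over shNT, SE, edgeR adjusted p = 0.574) with all libraries and by -0.44 without shNT replicate 3. An exact two-sided permutation test of mean log2 CPM gave p = 0.3, and the smallest p it can give with 3 libraries a group is 0.1. Mycn had 31.5 to 51.7 CPM in shNT and 39.02 to 50.7 CPM in shIGF2BP1, and MAX's gene had 81.2 to 88.9 and 82.01 to 89.95 CPM. Neither followed the Myc excess.

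The members moved far less than Myc, and they did not move together. In shNT replicate 3, with Myc at 120.8 CPM, the median member stood 0.17 above its own mean log2 CPM over the 6 libraries. The same median deviation was 0.04 in shNT replicate 1, -0.25 in shNT replicate 2, and -0.07, -0.08 and 0.11 in shIGF2BP1 replicates 1 to 3. By this median the members were lowest in shNT replicate 2, the library of second highest Myc, and not in shIGF2BP1 replicate 1, the library of lowest Myc. The summed CPM of the members, to which Npm1 and Ncl give the most, ordered the libraries otherwise. It was highest in shNT replicate 1 at 11522, was 10846 in shNT replicate 3 and 10080 in shNT replicate 2, and was lowest in shIGF2BP1 replicate 2 at 9748. These are bulk RNA values, in which fewer cells of a kind and less RNA per cell cannot be told apart.

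shNT replicate 3 was the highest of the 6 libraries for 18 of the 37 members (48.6%), where it was the highest for 24.5% of all tested genes. It was the lowest for 8 members (21.6%), near its share of 23.6% over all tested genes, and lay within the range of the other 5 for 11. shNT replicate 2 was the lowest library for 18 members and the highest for 0, and over all tested genes it was the lowest for 16.3% and the highest for 15.9%. shIGF2BP1 replicate 3 was the highest for 9 members (24.3%) and the lowest for 0. Over all tested genes that library was the highest for 12.04% and the lowest for 13.02%. Scaling by RLE size factors or by library size alone left shNT replicate 3 highest for 17 members and shNT replicate 2 lowest for 19 and 22. The library of lowest member levels was picked out after its values were seen. These counts are descriptions of single libraries, with no test.

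Ranked over the 6 libraries, log2 CPM ran with Myc (a positive Spearman rho) for 22 of the 37 members (59.5%) and for 49.4% of all tested genes. It did so for 8 of 8 small-subunit factors, 6 of 12 large-subunit factors, 1 of 4 box C/D genes and 5 of 82 ribosomal protein genes. Among ribosome biogenesis genes outside the members it did so for 56 of 109 (51.4%), near the share of all tested genes. These included 22 of 43 other small-subunit factors (51.2%), so the 8 of 8 was not shared by the genes most like them. Without shNT replicate 3, the count was 10 of 37 members (27.03%), against 48.2% of all tested genes, and 4 of 8 small-subunit factors. Pearson's r was positive for 24 members (64.9%) with 6 libraries, against 49.3% of all tested genes, and for 12 without that library. By Pearson's r with 6 libraries, ribosome biogenesis genes outside the members were near the members instead, at 68 of 109 (62.4%). These included 28 of 43 other small-subunit factors (65.1%). Of the box C/D members, 3 of 4 were positive by that measure, so these contrasts depend on the measure. The signs for the members therefore rest on the library of highest Myc, and since all genes share the same libraries they are given as a description, with no p.

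**Figure D2:**
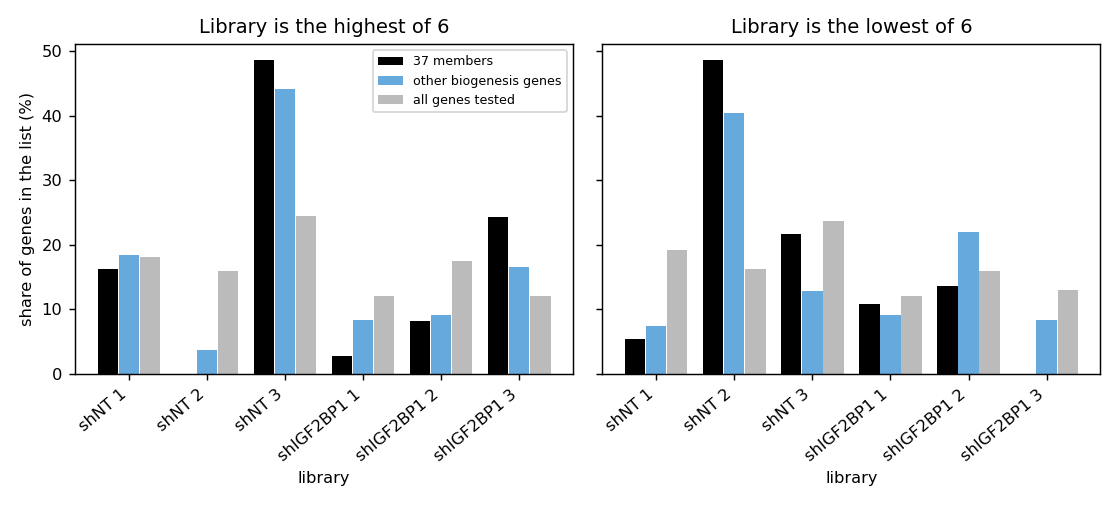
Share of genes (%) for which each library was the highest (left) or the lowest (right) of the 6, for the 37 members, the other ribosome biogenesis genes listed and all 13445 genes tested. shNT replicate 3 was the highest for 48.6% of members and shNT replicate 2 the lowest for 48.6%.

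Among the members, small-subunit assembly factors made up the clearest block in shNT replicate 3. It was the highest library for 7 of these 8, under all 3 scalings. Among other ribosome biogenesis genes, small-subunit factors were not ahead. There shNT replicate 3 was the highest for 18 of 43 small-subunit factors (41.9%) and 24 of 43 large-subunit factors (55.8%). Rrp12, a HEAT-repeat protein of small-subunit maturation and export, had 55.7, 37.9 and 99.98 CPM in shNT and 49.7, 54.5 and 70.8 CPM in shIGF2BP1. The third shNT library was high, the second low, and the shIGF2BP1 values lay between them. Bysl, which acts late in small-subunit assembly, stood 1.83-fold over the median of the other libraries in shNT replicate 3, and Ltv1, needed for export of the subunit, 1.63-fold. The processome proteins Utp20 and Wdr43 were 1.45-fold and 1.43-fold over it, the GTPase-like factor Tsr1 1.40-fold, and Nop14 1.23-fold. Noc4l, the partner of Nop14, was the exception, at 54.1 CPM there and 65.2 CPM in shIGF2BP1 replicate 3. Read counts of Tsr1 are uncertain, since 32.3% of its exonic length overlaps Srr on the other strand and the strand setting of the counting is not given in the sources used here. In 9 members an overlapping gene on the other strand held over 10% as many counts as the member. These were Bysl, Bop1, Gnl3, Nop56, Rrp9, Dkc1, Tsr1, Nhp2 and Wdr12. The exonic length shared with the other strand differed widely among them. After Tsr1 it was 9.37% in Bysl and 3.84% in Nhp2, and in the rest from 0.12% in Nop56 to 1.69% in Bop1. The same uncertainty therefore covers little of the exonic length of most of them. For Bysl the overlapping gene, Ccnd3, held 304% as many counts, and for Bop1, Mroh1 held 160.2% as many.

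Box C/D snoRNP genes, whose products guide 2′-O-methylation of rRNA, were split. Nop58 had 268, 218 and 492 CPM in shNT and 285, 259 and 233 CPM in shIGF2BP1. Its shNT replicate 3 value was 1.90-fold over the median of the other 5, the largest such ratio of any member, and the remaining libraries overlapped. Nop56, its partner in the same particle, had 458, 381 and 662 CPM in shNT and 407, 442 and 415 CPM in shIGF2BP1, again with only shNT replicate 3 set apart. The methyltransferase of the particle, Fbl (fibrillarin), did not share that pattern, with 168, 108 and 155 CPM in shNT and 125, 115 and 166 CPM in shIGF2BP1. Rrp9, the protein specific to the U3 snoRNP, went the other way, with 84.2, 70.5 and 68.3 CPM in shNT and 88.8, 95.8 and 115 CPM in shIGF2BP1. Its groups did not overlap, and shNT replicate 3 was its lowest library.

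Pseudouridylation genes were split as well. Gar1, a box H/ACA core protein, had 120.3, 78.7 and 144 CPM in shNT and 92.5, 81.0 and 102 CPM in shIGF2BP1. Dkc1 (dyskerin), the pseudouridine synthase of the same particle, had 172, 133 and 187 CPM in shNT and 158, 135 and 153 CPM in shIGF2BP1. Both were highest in shNT replicate 3 and lowest in shNT replicate 2. Nhp2, the third core protein among the members, was lowest in shNT replicate 3 (88.9 CPM against 96.9 to 137 elsewhere), and so was Pus7, a stand-alone pseudouridine synthase (69.8 against 72.6 to 99.0).

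RNA polymerase I was represented by its 2 largest subunits. Polr1a had 111, 90.8 and 111 CPM in shNT and 119.7, 103 and 117 CPM in shIGF2BP1, a narrow range in which shNT replicate 3 did not stand out. Polr1b had 113, 70.0 and 129.6 CPM in shNT and 87.0, 94.97 and 80.4 CPM in shIGF2BP1, with the highest and the lowest value of the 6 both in shNT. The 2 subunits of 1 enzyme thus differed in pattern across the libraries.

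Large-subunit assembly factors went both ways in shNT replicate 3, the highest library for 4 of 12 and the lowest for 3. Ddx21, a nucleolar RNA helicase, had 348, 326 and 501 CPM in shNT and 275.2, 236 and 324 CPM in shIGF2BP1. Its groups did not overlap, though the lowest shNT and the highest shIGF2BP1 value nearly met. Wdr12, of the Pes1-Bop1-Wdr12 complex of precursor rRNA processing, stood 1.43-fold over the median of the other libraries in shNT replicate 3, Nop2 1.36-fold and Wdr74 1.35-fold. Its partners did not: Pes1 had 230, 199 and 214 CPM in shNT and 228, 216 and 248 CPM in shIGF2BP1, and Bop1 had 99.6, 69.0 and 102 CPM in shNT and 102, 93.5 and 147 CPM in shIGF2BP1. In both, the lowest value was in shNT replicate 2 and the highest in shIGF2BP1 replicate 3.

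Noc2l, Nop16 and Mrto4 were the large-subunit members that were lowest in shNT replicate 3. Noc2l had 589, 456 and 395 CPM in shNT and 576, 648 and 616 CPM in shIGF2BP1, so the groups overlapped through shNT replicate 1. The annotation places 20.9% of the exonic length of Noc2l over Samd11 on the other strand, which held 0.04% as many counts. Mrto4, which helps to mount the ribosomal stalk, had 93.2, 77.7 and 77.7 CPM in shNT and 101, 93.8 and 133 CPM in shIGF2BP1, without overlap and with replicates 2 and 3 of shNT nearly equal. Nop16 in shNT replicate 3 was at 0.64 times the median of the other libraries, the smallest ratio of any member. Ppan, Nip7 and Rrp1b lay within the range of the other libraries there, at ratios of 0.91, 1.11 and 1.08.

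Among the organising proteins of the nucleolus, the 2 most abundant were lowest in the library of highest Myc. Npm1 had 3026, 2535 and 1571 CPM in shNT and 2134, 1957 and 1934 CPM in shIGF2BP1, so the shNT values enclosed the others. Ncl had 1932, 1644 and 1608 CPM in shNT and 1874, 1638 and 1853 CPM in shIGF2BP1. Processed copies of Npm1 are known in the mouse genome, and how reads shared with them were counted is not given in the sources used here. Tcof1 (treacle), a cofactor of RNA polymerase I, had 350.5, 534 and 647 CPM in shNT and 323, 290.1 and 618 CPM in shIGF2BP1, and was the most variable member, with an SD of 0.51 in log2 CPM over the 6 libraries. It was high in replicates 2 and 3 of shNT and in replicate 3 of shIGF2BP1. Gnl3 (nucleostemin), a nucleolar GTPase, was the least variable, with 189, 179 and 189.6 CPM in shNT and 165, 183 and 182 CPM in shIGF2BP1 (SD 0.07). Nolc1, Pa2g4 and Mybbp1a stood at 1.13, 1.16 and 0.93 times the median of the other libraries in shNT replicate 3.

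**Figure D3:**
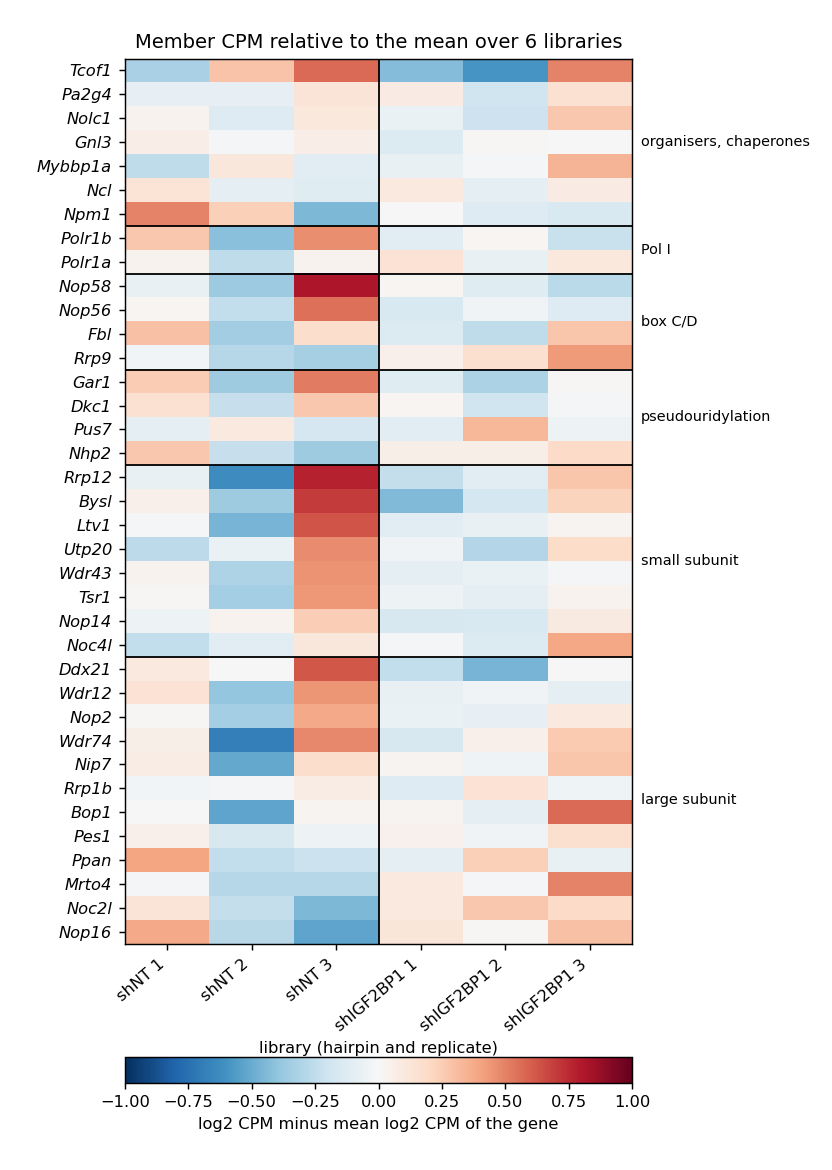
Each member (rows, grouped by role) in each library (columns), as log2 CPM minus the gene's mean log2 CPM over the 6 libraries; red is above and blue below that mean. The shNT replicate 3 column is mostly red for small-subunit factors and blue for Npm1, Noc2l, Nop16, Nhp2 and Rrp9, and the shNT replicate 2 column is mostly blue.

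Spread across libraries was modest for the members as a list. The SD of log2 CPM over the 6 libraries had a median of 0.28 over members, with a range of 0.07 to 0.51, and a median of 0.34 over all tested genes. The comparison was not matched for level. Every member had 855 counts or more in each library, while the filter for testing set a minimum count of 10. For Myc it was 1.81.

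Members whose window holds CACGTG were not set apart cleanly by the library of highest Myc. shNT replicate 3 was the highest library for 5 of the 8 genes with the word (Nop2, Wdr43, Tsr1, Ltv1 and Utp20) and for 11 of the 24 without it. Its log2 difference from the median of the other 5 libraries ran from -0.12 to 0.70 with the word, with a median of 0.46, and from -0.64 to 0.93 without it, with a median of 0.19. The ranges overlapped, and the 2 sets were too few to read more from them. Pus7, with the word, was lowest in that library, and Nop58, without it in the window, had the largest excess.

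Other gene lists differed from the members in the same libraries. Of 30 Myc targets outside the nucleolus, such as the nucleotide synthesis enzyme Gart, shNT replicate 3 was the highest library for 4 and the lowest for 9. Of 82 cytosolic ribosomal protein genes, shNT replicate 1 was the highest library for 79 and shNT replicate 3 the lowest for 62. Over all tested genes shNT replicate 3 was the highest for 24.5% and the lowest for 23.6%, and shNT replicate 1 the highest for 18.1%. Gart had 195.5, 164 and 151 CPM in shNT and 219.6, 165 and 261 CPM in shIGF2BP1. Phb (prohibitin) had 97.7, 79.6 and 56.7 against 119, 100.2 and 131 CPM, without overlap (edgeR adjusted p = 0.684), and the glycolytic hexokinase Hk2 131.5, 115 and 140.1 against 85.8, 109 and 114 CPM, also without overlap (edgeR adjusted p = 0.788). Gart, Phb and Hk2 were named for the smallest p-values of their list. Groups did not overlap for 6.06% of all tested genes with shIGF2BP1 higher and for 5.59% with it lower. Thus the ribosomal proteins and the factors that assemble them ran unlike in shNT replicate 3, which was not tested as a difference between lists.

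**Figure D4:**
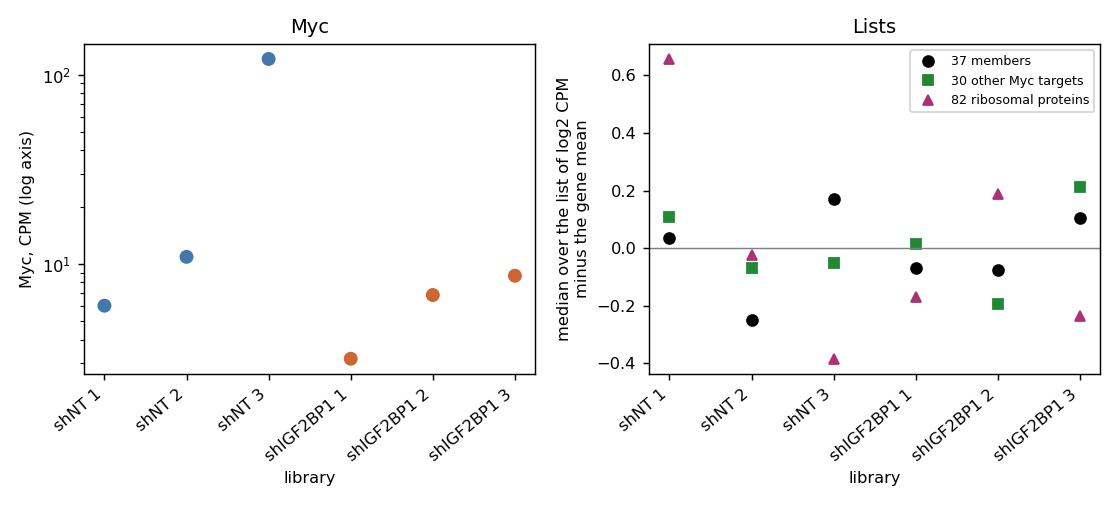
Left, Myc in CPM (log axis) in each library, blue shNT and orange shIGF2BP1; right, for the same libraries, the median over each list of log2 CPM minus the gene mean, for the 37 members, 30 other Myc targets and 82 ribosomal proteins. Myc reached 120.8 CPM in shNT replicate 3, where the member median was 0.17 and the ribosomal protein median -0.38.

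Between the labelled groups, no member passed the test. The edgeR quasi-likelihood test called 0 of 37 members at an adjusted p under 0.05, where it called 0.0223% of all tested genes. DESeq2 also called 0 members (0.61% of all genes), and so did limma-voom (0.00744%), edgeR without a filter (0.654%), with a filter at a mean of 5 CPM (0.00954%) and with the replicate number as a block (0.134%). At an unadjusted p under 0.05 edgeR counted 0 members, against 7.16% of all tested genes. Of the members, 20 had a negative and 17 a positive log2 fold change (shIGF2BP1 over shNT), with a median of -0.06, while 51.5% of all tested genes were negative with a median of -0.01. Without shNT replicate 3, 11 were negative and 26 positive with a median of 0.06, and 49.8% of all genes were negative. Without shNT replicate 2, 25 were negative with a median of -0.17. The balance of signs thus moved with either of these libraries, and with all 6 it was near that of all genes. The median without a sign was 0.15 over members and 0.22 over all tested genes. Members and all tested genes were not matched for level in these comparisons.

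The smallest p-values of members belonged to Rrp9, Ddx21 and Mrto4. Rrp9 had 74.3 ± 8.65 CPM in shNT and 100.02 ± 13.8 CPM in shIGF2BP1 (SD, n = 3 per group), which differ by 0.43 ± 0.20 on the log2 scale (SE, edgeR adjusted p = 0.698). Ddx21 had 392 ± 95.2 and 279 ± 44.1 CPM, a log2 difference of -0.49 ± 0.24 (edgeR adjusted p = 0.741), which was -0.28 without shNT replicate 3. Mrto4 had 82.9 ± 8.94 and 109 ± 20.9 CPM, a log2 difference of 0.40 ± 0.20 (edgeR adjusted p = 0.753). These were also the 3 members of 37 whose groups did not overlap, Rrp9 and Mrto4 higher and Ddx21 lower in shIGF2BP1, while groups did not overlap for 11.6% of all tested genes (6.06% higher, 5.59% lower). The next were Noc2l, Bop1 and Gar1, with log2 fold changes of 0.35, 0.34 and -0.32 and edgeR adjusted p-values of 0.814, 0.825 and 0.837. Single libraries moved these values: without shIGF2BP1 replicate 3 Mrto4 was at 0.23 and Bop1 at 0.11, and without shNT replicate 3 Noc2l was at 0.23 and Gar1 at -0.12. Without shNT replicate 2 Bop1 was at 0.18 and Gar1 at -0.53.

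The precision of the test bounds what could have been seen. The 95% intervals of the members ran down to -1.05 at most, for Tcof1, and up to 0.88 at most, for Noc2l, on the log2 scale. The standard errors ran from 0.18 to 0.33. Half-widths of the intervals ran from 0.40 to 0.74, so the size of change that the data leave possible differs between members. The interval of Rrp1b, from -0.41 to 0.39, and that of Gnl3, from -0.48 to 0.32, are among the narrower ones. Among the abundant members the log2 fold change was 0.05 ± 0.25 for Ncl (interval -0.51 to 0.61), -0.24 ± 0.31 for Npm1 (-0.92 to 0.43) and -0.09 ± 0.23 for Fbl (-0.60 to 0.43).

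By role, the small-subunit factors gave 7 negative and 1 positive log2 fold change with a median of -0.15, and the large-subunit factors 4 negative and 8 positive with a median of 0.07. Without shNT replicate 3 the small-subunit factors gave 1 negative and 7 positive with a median of 0.12, and the large-subunit factors 2 negative and 10 positive. The sign of the small-subunit block thus turned with the library of highest Myc. Nop58 went from -0.33 to 0.09 without that library, Nop56 from -0.25 to 0.0047, Rrp12 from -0.14 to 0.32 and Ltv1 from -0.17 to 0.18. Npm1 went from -0.24 to -0.47, and to -0.028 without shNT replicate 1. Polr1b, at -0.25 with all libraries, was at -0.07, and Polr1a went from 0.12 to 0.16.

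**Figure D5:**
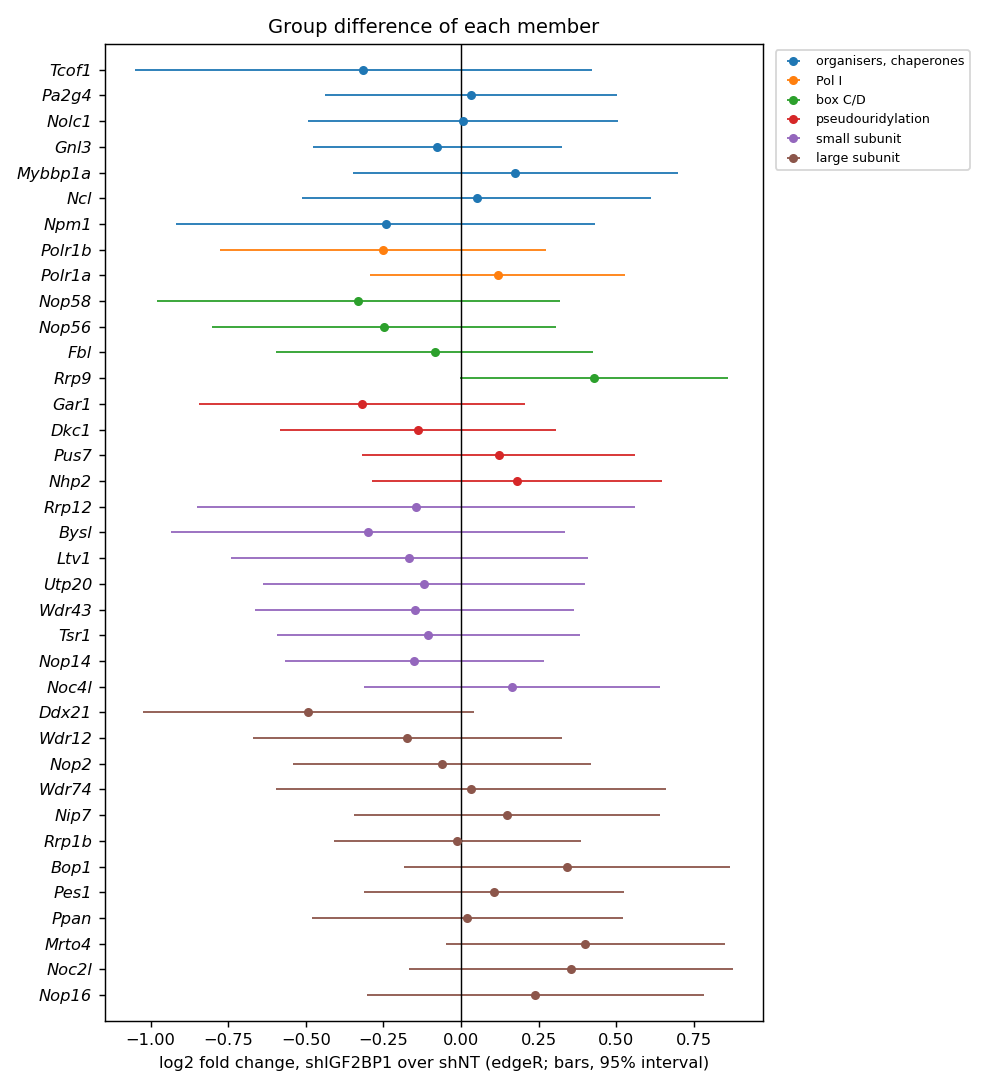
Log2 fold change of each member, shIGF2BP1 over shNT, from edgeR (points) with its 95% interval (bars), coloured by role. Every interval includes 0, from Ddx21 at -0.49 to Rrp9 at 0.43.

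Of 110 other ribosome biogenesis genes listed, 109 were tested and 0 were called by edgeR (0.0223% of all genes), with 4 higher and 7 lower at an unadjusted p under 0.05, a threshold that 7.16% of all tested genes passed. Their log2 fold changes were negative for 58 and positive for 51, with a median of -0.02. shNT replicate 3 was the highest library for 48 (44.0%) and shNT replicate 2 the lowest for 44 (40.4%). The share highest in shNT replicate 3 was 24 of 43 for other large-subunit factors, 18 of 43 for other small-subunit factors, 4 of 13 for the polymerase I machinery and 2 of 10 for snoRNP assembly factors.

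Nsa2, which helps to mature the large-subunit precursor, showed the smallest p-value of the wider list. It had 262, 183 and 159.5 CPM in shNT and 66.6, 91.7 and 61.9 CPM in shIGF2BP1, so every shNT library stood above every shIGF2BP1 library. Its means were 201 ± 53.5 and 73.4 ± 16.0 CPM (SD, n = 3 per group). The log2 difference was -1.46 ± 0.25 (SE), its interval -2.003 to -0.91, and edgeR gave it an adjusted p of 0.128. DESeq2 called it (adjusted p = 0.000111), as did edgeR without a filter on low counts (7.65e-06) and with the replicate number as a block (0.0448), and limma-voom did not (0.119). Leaving out any library kept the value between -1.22 and -1.64, at edgeR adjusted p-values of 0.136 to 0.739. In the annotation 37.2% of its exonic length overlaps Gfm2 or Fam169a on the other strand, so its counts are uncertain. Nsa2 lies on chromosome 13 from 97129424 to 97137937 on the minus strand of GRCm38.

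Of the wider list, 7 genes had non-overlapping groups with the higher values in shIGF2BP1 and 11 with the lower, where 6.06% and 5.59% of all tested genes did. The genes named next had the smallest p-values of the list in each direction, and none passed the edgeR test. Aatf, of the small-subunit processome, had 107.6, 75.4 and 113 CPM in shNT and 59.5, 62.7 and 61.5 CPM in shIGF2BP1 (edgeR adjusted p = 0.524). Gnl3l, a relative of nucleostemin, had 123, 153 and 159.9 CPM in shNT and 89.4, 79.1 and 109.1 CPM in shIGF2BP1 (edgeR adjusted p = 0.551). Utp14a, another processome protein, had 126.7, 127 and 116 CPM in shNT and 73.1, 100.9 and 80.5 CPM in shIGF2BP1 (edgeR adjusted p = 0.623). In these 3 genes the groups lay apart with shNT above.

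The groups of the 4 higher genes lay apart with shIGF2BP1 above. Polr1e, an RNA polymerase I subunit, had 30.7, 21.3 and 25.3 CPM in shNT and 41.2, 40.8 and 42.1 CPM in shIGF2BP1 (edgeR adjusted p = 0.547). Wdr46, a scaffold of the small-subunit processome, had 48.5, 31.7 and 35.6 CPM in shNT and 57.6, 57.4 and 60.2 CPM in shIGF2BP1 (edgeR adjusted p = 0.629). In both genes the 3 shIGF2BP1 libraries were close together. Gnl2, a GTPase of the large subunit, had 123, 125 and 89.2 CPM in shNT and 162, 181 and 137 CPM in shIGF2BP1 (edgeR adjusted p = 0.686). Ebna1bp2, a large-subunit factor, had 99.3, 85.0 and 53.3 CPM in shNT and 118, 99.6 and 133 CPM in shIGF2BP1 (edgeR adjusted p = 0.687), with the groups of the last gene nearly touching.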

How the data were processed

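Per the submitters' processing notes, the authors used bcl2fastq, HISAT2 2.1.0, HTSeq and the build GRCm38. Neither the annotation release nor the strand setting is given in the sources used here. The labels' protocols give 600 ng of total RNA, poly-A RNA taken from 200 ng, a stranded kit and 53 cycles per paired read. The deposited table holds raw counts per gene, 1 column per library, and 92 spike-in rows with 0 counts that were left out. Symbols came from GENCODE M21 (42548 of 43629 IDs matched, and unmatched IDs held 0.111% of counts).

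Counts were tested with edgeR 4.0.16 (R 4.3.3; TMM, filterByExpr with a minimum count of 10 and total of 15, robust quasi-likelihood F test, two-sided, no covariates), with Benjamini-Hochberg adjustment over 13445 genes at 0.05. Log2 CPM used a prior count of 2. A count of 3, the limit a count of 0 allows, is 0.0851 to 0.114 CPM, for counting error only. No 2 libraries agreed within sampling noise (chi-square per gene of 46.8 or more). The tests were also run on simulated counts, drawn independently around a shared mean for each gene and group. No outlying library such as shNT replicate 3 was built in, and the outcome is not reported here.

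The members and lists were chosen with earlier results of these data known. Values in every library are given for 12 fixed members, the 8 with the smallest p, 4 higher and 4 lower genes of the wider list and 3 Myc targets. Correlations with Myc are given as counts of signs, with and without the library of highest Myc. The members' promoters came from RefSeq. DESeq2 1.42.0, limma-voom (limma 3.58.1) and other settings were alternatives. Some single marker genes are not reported here.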

Additional observations from a re-analysis of the deposited data

How the results depend on the processing

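No member was called under any alternative, and the smallest adjusted p among 481 such values was 0.307. The count of all genes called was 3, and became 82 with DESeq2, 138 without a filter on low counts, 18 with the replicate block, and 1 at an adjusted p of 0.01, with a filter at a mean of 5 CPM or with limma-voom. The wider list had 1 call, Nsa2, with DESeq2, without a filter and with the replicate block. Deviations from the group mean correlated at 0.19, -0.09 and 0.28 between same-numbered libraries across the groups. Differently numbered libraries across the groups ran from -0.37 to 0.22, so the numbers were not taken as pairs. With the block, 0 members were called and their median was -0.03.

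Leaving out 1 library moved the count of all genes called over 1 to 5 and the members with a negative value over 11 to 25 of 37, the lowest without shNT replicate 3. 21 members changed sign under some alternative and 16 under none. By library size alone Gnl3 was 0.0017, Nop2 0.012 and Rrp1b 0.066, and Rrp1b was 0.0092 with the filter at 5 CPM. Nolc1 was -0.0014 with limma-voom and -0.0045 with the block, and Igf2bp1 -0.24 and -0.047. Library size alone shifted the median of all genes by 0.079 and RLE by 0.0015. With 1 library left out, log2 fold changes ran over Bysl -0.52 to 0.033, Fbl -0.26 to 0.041, Igf2bp1 -1.24 to 0.76, Ltv1 -0.39 to 0.18, Ncl -0.00068 to 0.14, Nip7 -0.038 to 0.28, Noc4l -0.0095 to 0.28. They ran over Nolc1 -0.14 to 0.12, Nop2 -0.22 to 0.14, Nop56 -0.41 to 0.0047, Nop58 -0.55 to 0.092, Pa2g4 -0.042 to 0.14, Ppan -0.093 to 0.26, Pus7 -0.021 to 0.20. For the rest with a change of sign they ran over Rrp12 -0.42 to 0.32, Rrp1b -0.078 to 0.045, Tsr1 -0.27 to 0.12, Utp20 -0.27 to 0.12, Wdr12 -0.37 to 0.029, Wdr43 -0.32 to 0.066, Wdr74 -0.23 to 0.32. The cause was not tested.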
